A study of Mus musculus with 32 samples.

Results

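Gene expression of eosinophil progenitors (EoPs) was compared with that of granulocyte-macrophage progenitors (GMPs) from wild type (WT) mice. These are the samples titled as WT EoP and WT GMP, 3 arrays of each, and so 6 of the 32 arrays of the series. All mice were BALB/c, 7 to 12 weeks old, and carried no transgene, and marrow came from femurs and tibiae. Each array held RNA from a pool of mice. Both populations were sorted as lineage-negative, Sca1-, cKit+, CD34+ cells with CD16/32. EoPs also carried the IL-5 receptor alpha chain (IL-5Rα+), whereas the study's methods set GMPs as IL-5Rα- and their labels name no IL-5Rα gate. The lineage cocktail held antibodies to CD3, CD4, CD8, B220, Gr1 and Ter119. The series also has WT common myeloid progenitors (CMPs, 3 arrays) and the same progenitors of IL-5 transgenic (IL5T) mice, in which the CD2 promoter drives IL-5 without pause. These included 3 arrays of IL5T EoPs and 5 of IL5T GMPs. Nothing was given on how many mice a pool held. The p-values rest on the spread between pools within every population of the 32 arrays, and not on that of the WT EoP and WT GMP pools alone.

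GMPs are marrow cells that give rise to neutrophils and monocytes, and EoPs are the committed precursors of eosinophils. IL-5 is the cytokine that most selectively drives eosinophil growth, through a receptor of a private alpha chain and a beta chain shared with the IL-3 and GM-CSF receptors. Eosinophil identity in the mouse depends on the transcription factor GATA-1, together with C/EBP factors and PU.1. Eosinophils are recognized by large granules that hold a peroxidase, major basic proteins and ribonucleases.

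RNA had been hybridized to Illumina MouseWG-6 beadchips, and all 6 arrays were run together on version 2.0. Levels are log2 intensities after background correction and quantile normalization of 24159 probes that were also on version 1.1. On the 6 arrays, levels ran from 4.45 to 14.70 with a median of 5.04. A probe counted as detected where its detection p-value was under 0.05, which held for 9787 to 10293 probes per array. The lowest detected level of an array was between 5.34 and 5.48. Replicate arrays correlated with r between 0.991 and 0.993 in EoPs and between 0.989 and 0.995 in GMPs, against 0.970 to 0.978 for EoP with GMP arrays, across probes. Differences are EoP minus GMP, from a limma fit over all 32 arrays, and a probe was called at a Benjamini-Hochberg adjusted p under 0.05 over all probes. Levels compare a gene between samples and not genes with each other.

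Il5ra, the gene of the receptor chain used in the gate, was first read as a check of the labels. Its level was 6.80, 6.72 and 6.86 in WT EoPs, against 5.00, 5.02 and 4.84 in WT GMPs, where no array detected it. Since the gate used this protein, its difference is no finding. Kit, which both gates required, had levels of 12.36, 12.20 and 12.43 in WT EoPs, against 12.29, 12.58 and 12.19 in WT GMPs, and the groups overlapped. The GMP gene Mpo (myeloperoxidase) lay between 13.68 and 14.03 on all 6 arrays, so that both populations carried high levels of a gene that marks GMPs. The T cell genes Cd3e and Cd8a, whose proteins were excluded by the sort, were detected on none of the 6 arrays.

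WT GMP replicate 2 stood apart from the other GMP arrays in 3 kinds of genes, as shown in the plot of red cell, late neutrophil and immediate early genes, which were chosen after their values were seen. Hba-a1, an alpha globin gene with near copies, had levels of 11.28, 11.91 and 10.63 in WT EoPs, against 5.65, 12.26 and 6.49 in WT GMPs. Ltf, the neutrophil granule protein lactoferrin, had levels of 6.66, 9.81 and 7.69 in WT EoPs, against 4.69, 9.50 and 5.12 in WT GMPs. In both genes GMP replicate 2 was far above the other GMP arrays and reached the level of the EoP arrays. The immediate early gene Egr1, by contrast, was lowest on that array, at 13.06, 12.65 and 13.29 in WT EoPs, against 10.80, 7.18 and 11.50 in WT GMPs, and so was Fos, at 13.31, 13.45 and 13.52 in WT EoPs, against 12.59, 10.35 and 12.94 in WT GMPs. As whole lists, the summed level of 11 red cell markers was 12.92 to 13.64 in WT EoPs, against 11.12 to 13.84 in WT GMPs, and that of 13 late neutrophil markers was 12.42 to 13.69, against 11.22 to 13.82. Hba-a1 (3.13, adjusted p = 0.227), Ltf (1.62, adjusted p = 0.51) and Egr1 (3.17, adjusted p = 0.0964) were not called between EoPs and GMPs. Without WT GMP replicate 2, limma called Hba-a1 (5.20, adjusted p = 0.0186) and the beta globin gene Hbb-bt (5.05, adjusted p = 0.0279) higher in EoPs. Dusp1 was called higher without WT GMP replicate 3 (2.73, adjusted p = 0.043) and not with all arrays (2.10, adjusted p = 0.0889). Xist, which marks female cells, had levels of 4.96, 6.54 and 11.26 in WT EoPs, against 4.56, 8.31 and 4.75 in WT GMPs, while the Y-linked gene Eif2s3y was detected on every array. The part of these markers in other results was not tested.

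**Figure D1:**
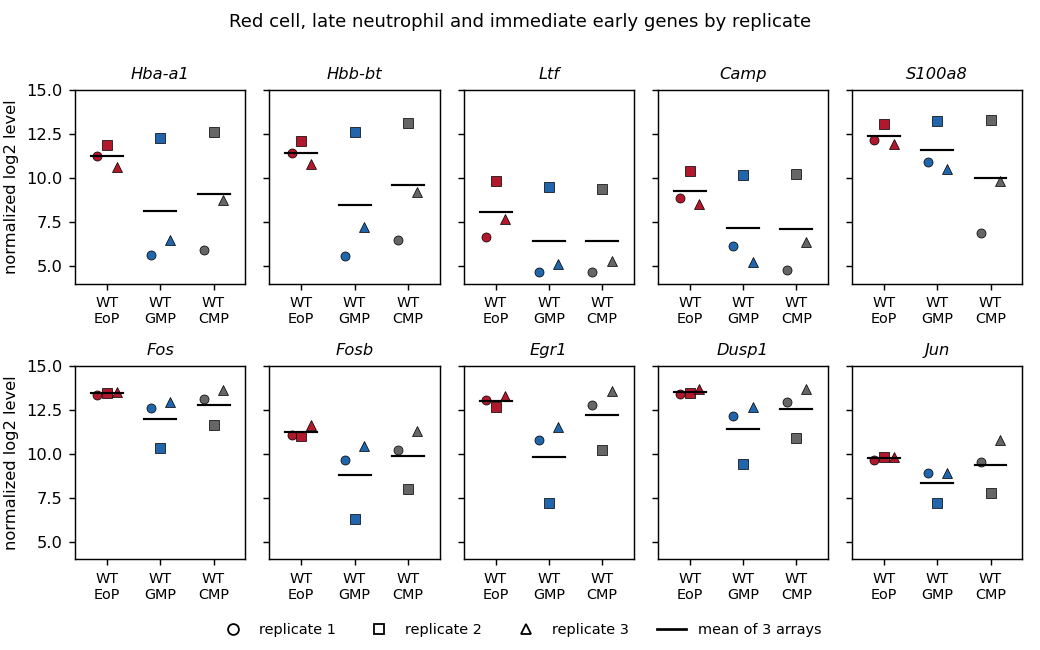
Normalized log2 level (vertical axis) of 10 genes of red cells (Hba-a1, Hbb-bt), late neutrophils (Ltf, Camp, S100a8) and the immediate early response (Fos, Fosb, Egr1, Dusp1, Jun) on each array of WT EoPs, GMPs and CMPs. Symbols mark the replicate number and lines the mean of 3 arrays. Among GMP and among CMP arrays, replicate 2 (squares) is the highest in every globin and neutrophil gene and the lowest in every immediate early gene shown.

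In all, 1054 probes (4.36% of 24159) were higher and 1173 (4.86%) were lower in EoPs than in GMPs. With 1 probe standing for each gene, 779 genes (5.11% of 15251) were higher and 880 (5.77%) were lower. Without WT GMP replicate 2, 885 probes were higher and 893 were lower. The 3 EoP arrays did not overlap the 3 GMP arrays in 1640 of these 1659 genes. Over all 15251 genes, every EoP array was above every GMP array in 2060 (13.5%) and below in 2613 (17.1%), called or not. Differences of more than 2-fold were found in 370 of the higher and 284 of the lower genes. In bulk RNA, fewer cells of a type and less RNA per cell cannot be told apart. Of called probes, 47.3% were higher in EoPs, against 23.3% when arrays were scaled to a common median, so the balance of both directions depends on the scaling. The median difference over all genes was -0.01, and medians of gene lists are read beside it. Counts of called genes in lists are read beside the 5.11% and 5.77% of all genes. These shares also cover genes detected on none of the 6 arrays, as 8228 of the 15251 genes were detected on at least 1. Where leaving out 1 array changed the call of a gene named here, the array is given by its population and replicate number.

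**Figure D2:**
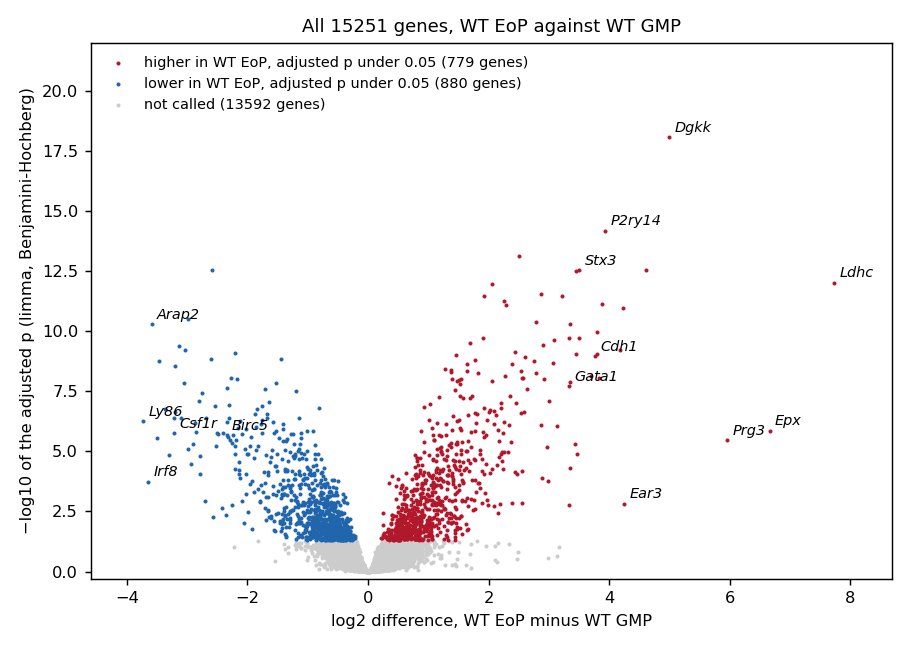
Each point is 1 of 15251 genes, with the log2 difference of WT EoPs minus WT GMPs on the horizontal axis and −log10 of the adjusted p from limma on the vertical axis. Red points are the 779 genes called higher in EoPs, blue points the 880 called lower and grey points the rest. Ldhc, Epx and Prg3 lie farthest to the right, and Ly86, Irf8 and Arap2 farthest to the left.

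Genes of eosinophil granule proteins were among the largest rises. Epx, eosinophil peroxidase, had levels of 14.43, 14.40 and 14.38 in WT EoPs, against 6.89, 8.67 and 7.68 in WT GMPs (log2 difference 6.66, standard error 0.79, adjusted p = 1.41e-06). Prg3, a major basic protein homologue, had levels of 14.16, 14.09 and 14.06 in WT EoPs, against 7.67, 8.87 and 7.89 in WT GMPs (log2 difference 5.96, standard error 0.75, adjusted p = 3.46e-06). The EoP arrays were close to the top of the scale and to each other in both genes, while GMP replicate 2 was the highest GMP array. Ear3, an eosinophil-associated ribonuclease of a family with near-identical copies, had levels of 13.99, 13.92 and 14.05 in WT EoPs, against 8.01, 11.53 and 9.67 in WT GMPs (log2 difference 4.25, standard error 0.87, adjusted p = 0.00153). A second Ear3 probe, detected on all EoP arrays and 1 GMP array, gave a difference of 8.33 (adjusted p = 1.01e-10), with means of 13.44 in WT EoPs and 5.10 in WT GMPs. Prg2, the major basic protein itself, had levels of 14.23, 14.04 and 14.35 in WT EoPs, against 10.79, 12.94 and 11.85 in WT GMPs, so that its groups did not overlap but its difference of 2.34 was not called (standard error 0.80, adjusted p = 0.069). Without WT GMP replicate 2 Prg2 passed the test (2.88, adjusted p = 0.0466) and the difference of Epx was 7.12, adjusted p = 4.45e-06. Of 6 measured genes of this list, 3 were higher and none was lower, with a median of 3.30. Ear14 and Rnase2b were detected on none of the 6 arrays.

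WT CMPs place these levels. Epx had levels of 4.88, 8.18 and 6.56 in CMPs, Prg3 4.58, 7.57 and 5.95 and Prg2 8.01, 13.09 and 11.18. Replicate 2 was the highest CMP array in all 3 genes, as it was in Hba-a1 (5.91, 12.62 and 8.76 in CMPs). The step from CMPs to GMPs was not called for Epx (log2 difference of GMPs minus CMPs 1.21, adjusted p = 0.496) or for Prg2 (adjusted p = 0.567). That step shares the GMP arrays with the main comparison.

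The promoters of Epx, Prg3, Ms4a2 and Gata1 are shown because these genes rose in EoPs and GATA-1 is the factor most tied to eosinophil identity. Each is RefSeq sequence of build GRCm38.p6 on the strand of the gene, from 250 bases before the start to 50 after it. Epx is at chr11:87875487-87875786, minus strand, Prg3 at chr2:84987965-84988264, plus strand, Ms4a2 at chr19:11623670-11623969, minus strand and Gata1 at chrX:7967861-7968160, minus strand. Capitals mark GATAA, the core letters bound by GATA factors, on either strand, where the other strand reads TTATC.
Epx: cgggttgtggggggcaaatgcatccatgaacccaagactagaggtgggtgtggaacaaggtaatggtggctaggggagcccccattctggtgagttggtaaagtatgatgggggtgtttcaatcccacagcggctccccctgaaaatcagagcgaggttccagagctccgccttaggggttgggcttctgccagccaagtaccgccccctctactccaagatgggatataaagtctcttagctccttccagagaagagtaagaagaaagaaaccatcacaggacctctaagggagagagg
Prg3: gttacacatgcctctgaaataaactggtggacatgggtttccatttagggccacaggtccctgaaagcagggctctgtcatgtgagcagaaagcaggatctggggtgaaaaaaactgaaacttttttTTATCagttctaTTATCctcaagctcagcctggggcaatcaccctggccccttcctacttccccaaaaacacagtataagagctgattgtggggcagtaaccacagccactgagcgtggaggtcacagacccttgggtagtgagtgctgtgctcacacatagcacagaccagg
Ms4a2: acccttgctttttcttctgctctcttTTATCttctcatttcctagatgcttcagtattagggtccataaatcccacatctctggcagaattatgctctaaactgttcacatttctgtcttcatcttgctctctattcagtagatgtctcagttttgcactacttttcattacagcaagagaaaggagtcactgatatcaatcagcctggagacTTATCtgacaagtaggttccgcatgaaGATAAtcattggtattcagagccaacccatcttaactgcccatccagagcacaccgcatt
Gata1: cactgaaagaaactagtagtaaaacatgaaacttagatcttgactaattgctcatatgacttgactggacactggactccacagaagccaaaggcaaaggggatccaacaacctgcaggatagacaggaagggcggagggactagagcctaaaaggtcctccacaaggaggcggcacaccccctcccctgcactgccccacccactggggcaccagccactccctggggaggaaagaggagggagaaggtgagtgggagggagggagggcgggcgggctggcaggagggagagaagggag
Prg3 held 2 matches, which began 123 and 111 bases before the start. Ms4a2 held 3, at 224, 37 and 10 bases before the start, and the windows of Epx and Gata1 held none. GATAA was found in 25.4% of all 32851 promoters of this length. Of the 20 genes with the largest rise, 16 matched a RefSeq promoter, and 9 of their 20 promoters held GATAA, as did 4 of 20 promoters of 18 genes with the largest fall. The letters TTNCNNAA, bound by C/EBP factors, were in 5 of the 20 promoters of rising and 6 of the 20 of falling genes, against 40.7% of all promoters. GAGGAA, bound by PU.1, was in 9 and 8, against 28.3%. Some genes have several promoters, and a match is a description of the letters and not of binding.

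Of the IL-5 receptor and the genes of its signal, 6 of 15 measured genes were higher and none was lower in EoPs. These include Il5ra, whose protein was in the gate. Of the other 14 genes 5 were higher, with a median difference of 0.65. Csf2rb2, a member of this list, encodes a beta chain that in the mouse serves IL-3 and not IL-5. Its levels were 8.69, 8.29 and 8.37 in WT EoPs, against 7.33, 6.83 and 7.26 in WT GMPs (log2 difference 1.31, standard error 0.40, adjusted p = 0.0377). The common beta chain Csf2rb, a near copy of it, had levels of 7.40, 7.28 and 7.19 in WT EoPs, against 6.54, 6.51 and 6.73 in WT GMPs and was not called (0.70, adjusted p = 0.267). The kinase gene Jak2, whose product sits on the beta chain, was at 10.35, 10.27 and 10.56 in WT EoPs, against 9.30, 9.36 and 9.25 in WT GMPs (log2 difference 1.09, standard error 0.14, adjusted p = 3.26e-06). All EoP arrays were above all GMP arrays in these 3 genes. Without 1 array, the call was lost for Csf2rb2 (any array, adjusted p 0.0613 to 0.147).

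The feedback inhibitors Cish and Socs2, which STAT5 induces, were higher as well. Cish had levels of 8.42, 8.41 and 8.44 in WT EoPs, against 6.97, 6.86 and 6.73 in WT GMPs (log2 difference 1.57, standard error 0.23, adjusted p = 2.88e-05), and Socs2 had levels of 6.95, 7.38 and 7.34 in WT EoPs, against 6.04, 6.30 and 5.11 in WT GMPs (log2 difference 1.41, standard error 0.24, adjusted p = 0.000218). In both, CMPs were above the EoPs, with levels of 9.63, 8.71 and 9.77 for Cish and 8.52, 8.33 and 8.69 for Socs2. Syk, a tyrosine kinase of this pathway, was at 7.79, 7.75 and 7.49 in WT EoPs, against 6.70, 6.01 and 6.80 in WT GMPs (log2 difference 1.17, standard error 0.28, adjusted p = 0.00683). Pim1, another STAT5 target, was at 8.04, 7.91 and 8.21 in WT EoPs, against 7.76, 6.00 and 7.29 in WT GMPs and did not pass (1.03, adjusted p = 0.129), with GMP replicate 2 the lowest array, and Socs3 overlapped between groups (-0.68, adjusted p = 0.749). Without WT GMP replicate 2 the number of higher genes in this list was 4, Il5ra included. Calls lost when 1 array was left out were those of Syk (GMP 2, adjusted p = 0.064). Leaving out 1 array gave a call for Pim1 (GMP 1, adjusted p = 0.0481).

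**Figure D3:**
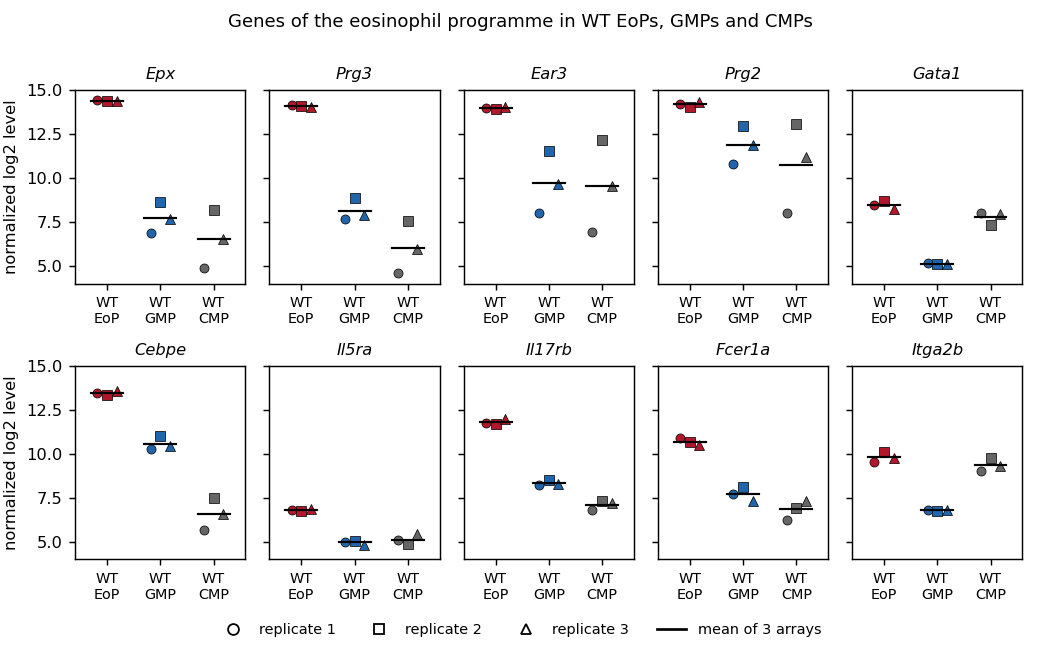
Normalized log2 level (vertical axis) of 10 genes on each array of WT EoPs, GMPs and CMPs. Symbols mark the replicate number and lines the mean of 3 arrays. The EoP arrays lie above the GMP arrays in every panel, and Gata1 and Itga2b are near the EoP level in CMPs, whereas Cebpe and Il17rb are not.

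Of 10 measured GATA factors and partners, 3 were higher in EoPs and 1 was lower, with a median of 0.36. Gata1 had levels of 8.50, 8.68 and 8.23 in WT EoPs, against 5.19, 5.11 and 5.10 in WT GMPs, and no GMP array detected it. Gata1 was thus up by at least 8.33-fold in EoPs (limma, adjusted p = 1.94e-08), a bound that sets the EoP mean against the lowest detected signal of the GMP arrays. In CMPs it was at 7.99, 7.36 and 7.98, so that GMPs were the lowest of the 3 populations (GMPs minus CMPs -2.64, adjusted p = 6.9e-07). Gfi1b, a repressor that GATA-1 switches on, was also lowest in GMPs, with 8.85, 8.66 and 8.41 in WT EoPs, against 6.21, 6.26 and 6.65 in WT GMPs and 10.04, 8.96 and 10.12 in CMPs (log2 difference 2.26, standard error 0.31, adjusted p = 1.03e-05). Gata2, the factor of early progenitors, did not separate the groups, at 11.06, 10.79 and 11.16 in WT EoPs, against 11.16, 10.92 and 11.02 in WT GMPs (-0.03, adjusted p = 0.974), and was higher in CMPs, at 13.04, 13.14 and 13.09. Lmo4 was higher (0.72, adjusted p = 0.00165). Lmo2, a bridging partner of GATA factors, was lower, at 12.07, 12.15 and 11.93 in WT EoPs, against 13.11, 13.17 and 13.20 in WT GMPs (log2 difference -1.11, standard error 0.15, adjusted p = 1.12e-05). Klf1, the erythroid factor, had levels of 8.56, 8.41 and 8.08 in WT EoPs, against 6.75, 7.69 and 7.34 in WT GMPs and was not called (1.09, adjusted p = 0.209).

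Among factors of neutrophil and monocyte fate, 5 of 18 measured genes were lower and 2 were higher, with a median of -0.15. Irf8, which drives monocyte and dendritic cell fate, had levels of 8.55, 9.39 and 7.87 in WT EoPs, against 12.39, 11.78 and 12.59 in WT GMPs (log2 difference -3.65, standard error 0.62, adjusted p = 0.000179). Klf4, a monocyte factor, had levels of 5.15, 6.36 and 5.28 in WT EoPs, against 8.25, 8.03 and 8.08 in WT GMPs (log2 difference -2.52, standard error 0.33, adjusted p = 5.83e-06). EoP replicate 2 was the EoP array nearest to the GMPs in both genes. Irf5, a factor of inflammatory macrophages, had levels of 6.90, 7.94 and 7.20 in WT EoPs, against 8.82, 8.90 and 8.90 in WT GMPs (log2 difference -1.52, standard error 0.18, adjusted p = 1.41e-06). Cebpa, required to form GMPs, was at 6.43, 6.89 and 6.75 in WT EoPs, against 8.23, 7.89 and 8.26 in WT GMPs (log2 difference -1.44, standard error 0.40, adjusted p = 0.0213). Id1 was lower too (-1.19, adjusted p = 0.0423). Without EoP replicate 1, EoP replicate 3, GMP replicate 1 or GMP replicate 3, 3 factors were lower. Leaving out 1 array ended the call of Cebpa (EoP 1 and 3 and GMP 1 and 3, adjusted p 0.056 to 0.097) and Id1 (any array, adjusted p 0.0576 to 0.173).

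Of the other factors of this list, Cebpe and Trib1 were higher. Spi1 and Cebpb were not called, although the EoP and GMP arrays did not overlap in either. Cebpe, which eosinophils and neutrophils need for their granules, had levels of 13.43, 13.36 and 13.56 in WT EoPs, against 10.27, 10.98 and 10.43 in WT GMPs (log2 difference 2.89, standard error 0.47, adjusted p = 0.000124), and levels of 5.64, 7.48 and 6.55 in CMPs. Trib1, a pseudokinase that controls the level of C/EBPα protein, had levels of 11.09, 10.58 and 11.13 in WT EoPs, against 8.22, 6.21 and 8.34 in WT GMPs (log2 difference 3.34, standard error 0.69, adjusted p = 0.00166), with GMP replicate 2 lowest. Without that array the difference of Trib1 was 2.65, adjusted p = 0.0225. Spi1, which encodes PU.1, lay at 10.19, 10.01 and 10.06 in WT EoPs, against 9.55, 9.69 and 9.70 in WT GMPs (0.44, adjusted p = 0.357). Cebpb was at 11.22, 11.59 and 11.59 in WT EoPs, against 12.17, 12.02 and 12.20 in WT GMPs and just missed the threshold (-0.66, adjusted p = 0.0505). It was called lower in 9 of 20 alternative settings, among them the deposited values and the 6 arrays fitted alone.

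Of 13 measured markers of mast cells and basophils, 5 were higher in EoPs and none was lower, with a median of 0.27. Fcer1a, the alpha chain of the IgE receptor, had levels of 10.86, 10.65 and 10.50 in WT EoPs, against 7.70, 8.08 and 7.31 in WT GMPs (log2 difference 2.97, standard error 0.39, adjusted p = 6.64e-06). Ms4a2, its beta chain, had levels of 8.48, 8.09 and 8.65 in WT EoPs, against 6.42, 5.83 and 5.87 in WT GMPs (log2 difference 2.37, standard error 0.30, adjusted p = 4.07e-06). Hdc, the enzyme that makes histamine, had levels of 13.08, 13.08 and 13.30 in WT EoPs, against 10.60, 10.90 and 10.54 in WT GMPs (log2 difference 2.48, standard error 0.39, adjusted p = 8.47e-05). In these 3 genes every EoP array was above every GMP array by more than 1 on the log2 scale, and CMPs were at or below the GMPs, with 7.75, 9.13 and 8.16 for Hdc. Slc18a2, which loads histamine into granules (1.88, adjusted p = 0.00137), and Cpa3, the carboxypeptidase A3 of mast cells (1.66, adjusted p = 0.0166), were higher as well. Mcpt8, the basophil protease, had levels of 11.68, 11.56 and 11.19 in WT EoPs, against 10.37, 10.40 and 9.86 in WT GMPs and was not called (1.27, adjusted p = 0.063). The summed level of the 13 markers was 14.94 to 14.95 in WT EoPs, against 13.08 to 13.48 in WT GMPs. The mast cell proteases Mcpt4, Mcpt2, Tpsb2 and Tpsab1 were detected on none of the 6 arrays, and the part of basophil or mast cell precursors in the sorted EoPs was not tested. Without 1 array, the call was lost for Cpa3 (GMP 2 and 3, adjusted p 0.0524 to 0.0621).

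Several genes were high in EoPs, low in GMPs and high again in CMPs. Itga2b, the integrin CD41 of megakaryocytes and early progenitors, had levels of 9.51, 10.09 and 9.77 in WT EoPs, against 6.81, 6.75 and 6.80 in WT GMPs (log2 difference 3.01, standard error 0.30, adjusted p = 8.39e-08), and of 8.99, 9.76 and 9.31 in CMPs. Cd55, an inhibitor of complement, had levels of 9.36, 9.59 and 9.58 in WT EoPs, against 5.11, 5.50 and 5.40 in WT GMPs (log2 difference 4.18, standard error 0.31, adjusted p = 5.79e-10), and of 7.52, 6.90 and 7.37 in CMPs. Amigo2, an adhesion protein, had levels of 10.11, 10.09 and 10.21 in WT EoPs, against 6.21, 6.72 and 6.41 in WT GMPs (log2 difference 3.69, standard error 0.32, adjusted p = 7.24e-09), and of 8.77, 7.67 and 8.92 in CMPs. GMPs were below CMPs in each of these genes, by -2.57 for Itga2b (adjusted p = 7.95e-07), -1.93 for Cd55 (adjusted p = 7.46e-05) and -2.01 for Amigo2 (adjusted p = 6.36e-05), in a step that shares the GMP arrays. Epor, the erythropoietin receptor, was at 7.03, 6.70 and 6.84 in WT EoPs, against 5.14, 5.65 and 5.40 in WT GMPs (1.46, adjusted p = 0.00246), and at 7.77, 7.20 and 8.06 in CMPs. The stem cell genes Hoxa7 (1.26, adjusted p = 0.00245), Hoxa9 (1.02, adjusted p = 0.0198) and Angpt1 (1.97, adjusted p = 0.00106) were also higher in EoPs, 3 of 17 measured in their list, and none was lower. Of 7 measured megakaryocyte markers Itga2b alone was higher, while Ppbp and Gp1bb were not detected on any of the 6 arrays. Of 11 red cell markers Epor alone was higher, but 3 were higher without WT GMP replicate 2, Hba-a1 among them. Calls lost when 1 array was left out were those of Hoxa9 (EoP 3 and GMP 1 and 3, adjusted p 0.0592 to 0.103).

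Of eosinophil surface receptors, 4 of 19 measured genes were higher and 2 were lower, beside 5.11% and 5.77% of all genes, with a median of 0.11. P2ry14, a receptor for UDP-glucose, had levels of 13.00, 13.10 and 13.05 in WT EoPs, against 8.91, 9.49 and 8.95 in WT GMPs (log2 difference 3.93, standard error 0.16, adjusted p = 6.75e-15). Il17rb, a subunit of the IL-25 receptor, had levels of 11.76, 11.66 and 11.95 in WT EoPs, against 8.22, 8.52 and 8.27 in WT GMPs (log2 difference 3.46, standard error 0.26, adjusted p = 8.5e-10). Adgre1, which encodes an adhesion receptor of macrophages and mouse eosinophils, had levels of 11.04, 11.54 and 11.21 in WT EoPs, against 8.52, 7.93 and 8.37 in WT GMPs (log2 difference 2.99, standard error 0.50, adjusted p = 0.000176), and 5.61, 6.29 and 4.84 in CMPs. Ltb4r1, a leukotriene B4 receptor, was at 13.37, 13.13 and 13.41 in WT EoPs, against 11.69, 12.12 and 11.42 in WT GMPs (log2 difference 1.56, standard error 0.20, adjusted p = 4.27e-06). The groups did not overlap in any of these genes. Of the 19 genes 11 were detected, whereas Ccr3, the eotaxin receptor, Siglecf, Ptgdr2, Cd300lf and Pirb were detected on none of the 6 arrays. The integrin Itgb7 (-1.38, adjusted p = 0.00506) and the leukotriene receptor Cysltr1 (-0.71, adjusted p = 0.00945) were lower. Of enzymes of lipid mediators, Alox5, the 5-lipoxygenase (1.45, adjusted p = 0.0242), and Tbxas1, the thromboxane synthase, were higher and none was lower among 14 measured. Tbxas1 had levels of 11.27, 11.28 and 11.34 in WT EoPs, against 8.44, 8.55 and 8.20 in WT GMPs (log2 difference 2.90, standard error 0.21, adjusted p = 3.63e-10). Leaving out 1 array ended the call of Itgb7 (EoP 3, adjusted p = 0.0581), Cysltr1 (GMP 2, adjusted p = 0.0667) and Alox5 (EoP 2 and 3 and GMP 1 and 3, adjusted p 0.0674 to 0.14).

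With 1 probe a gene, the largest rise was in Ldhc, a lactate dehydrogenase best known from testis, with levels of 13.21, 13.09 and 13.04 in WT EoPs, against 5.47, 5.57 and 5.11 in WT GMPs (log2 difference 7.73, standard error 0.41, adjusted p = 9.71e-13), and of 5.34, 5.38 and 5.74 in CMPs. The second probe of Ear3 had a larger difference, as did 4 unnamed probes of version 2.0 that version 1.1 lacks (7.81 to 8.50). Dgkk, a diacylglycerol kinase, had levels of 9.43, 9.75 and 9.71 in WT EoPs, against 4.66, 4.61 and 4.62 in WT GMPs and was not detected in GMPs, so that it was up by at least 18.6-fold (limma, adjusted p = 8.36e-19). Both genes separated EoPs from GMPs and CMPs alike. Slc30a2, a zinc transporter, was at least 12-fold higher (adjusted p = 7.75e-12), with levels of 8.75, 9.10 and 9.15 in EoPs, against 5.31, 4.96 and 5.09 in GMPs. Tent5c, a poly(A) polymerase, was at least 9.44-fold higher (adjusted p = 9.28e-09), with 8.82, 8.50 and 8.63 in EoPs, against 4.70, 4.80 and 4.96 in GMPs. Cdh1, the adhesion protein E-cadherin, had levels of 10.96, 10.69 and 10.73 in WT EoPs, against 7.19, 7.29 and 6.59 in WT GMPs (log2 difference 3.77, standard error 0.29, adjusted p = 1.08e-09). Csf1, the growth factor of macrophages, had levels of 9.44, 9.40 and 9.27 in WT EoPs, against 6.05, 6.07 and 5.63 in WT GMPs (log2 difference 3.45, standard error 0.17, adjusted p = 3.09e-13). The gene of its receptor, Csf1r, was lower. Of the remaining large rises, Sncaip, Hyal3, Rasl11b, Lrrn3, Lypd6, Stx3 and Inpp4b had differences from 3.46 (Inpp4b) to 4.61 (Sncaip). A further probe of Stx3, detected on 1 GMP array, gave -0.17 and was not called (adjusted p = 0.605).

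Genes of monocytes and macrophages were among the largest falls. Of 12 measured markers, 5 were lower and 1 was higher, with a median of -0.92. Csf1r, the receptor of macrophage colony stimulating factor, had levels of 7.05, 8.35 and 6.63 in WT EoPs, against 10.71, 10.11 and 10.88 in WT GMPs (log2 difference -3.22, standard error 0.39, adjusted p = 1.77e-06). Ly86, a partner of a receptor of the innate response, had levels of 7.94, 8.78 and 7.47 in WT EoPs, against 11.94, 11.70 and 11.73 in WT GMPs (log2 difference -3.73, standard error 0.42, adjusted p = 5.42e-07), the largest fall with 1 probe a gene. Ccr2, the chemokine receptor of monocytes, was at 4.90, 6.20 and 5.38 in WT EoPs, against 7.46, 7.10 and 6.74 in WT GMPs (log2 difference -1.61, standard error 0.38, adjusted p = 0.00566). EoP replicate 2 was the highest EoP array in all 3 genes, and without it the difference of Csf1r was -3.72, adjusted p = 2.15e-07. Mpeg1 (-0.90, adjusted p = 0.0378) and Emb (-1.80, adjusted p = 0.00115) were the other lower markers, and 3 were lower without WT EoP replicate 1. Apoe, also made by macrophages, was higher, at 9.21, 9.06 and 9.20 in WT EoPs, against 7.59, 7.51 and 7.82 in WT GMPs (1.52, adjusted p = 0.0154). The summed level of the 12 markers was 12.92 to 13.24 in WT EoPs, against 14.17 to 14.48 in WT GMPs, without overlap, and Fcgr1 was not detected on any of the 6 arrays. Without 1 array, the call was lost for Ccr2 (EoP 1, adjusted p = 0.0552), Mpeg1 (EoP 1 and 3 and GMP 2 and 3, adjusted p 0.0846 to 0.221) and Apoe (EoP 1 and 3 and GMP 2, adjusted p 0.0524 to 0.0568).

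**Figure D4:**
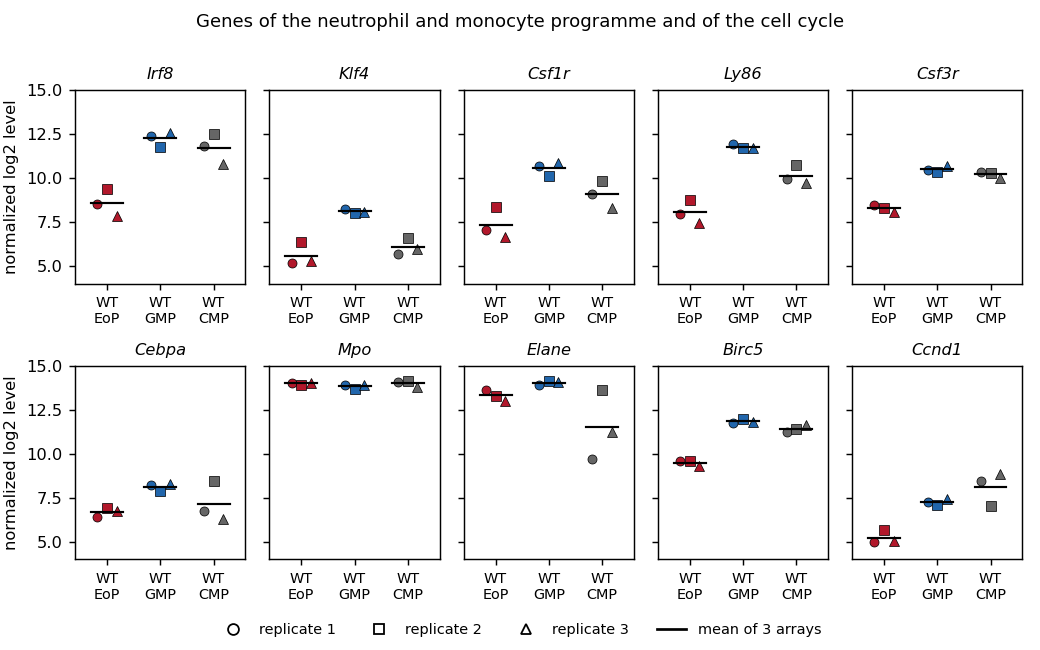
Normalized log2 level (vertical axis) of 10 genes on each array of WT EoPs, GMPs and CMPs. Symbols mark the replicate number and lines the mean of 3 arrays. The EoP arrays lie below the GMP arrays in Irf8, Klf4, Csf1r, Ly86, Csf3r, Cebpa, Elane, Birc5 and Ccnd1, and overlap them in Mpo.

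Other large falls were spread over genes of several functions. H2-DMb1, a chaperone of MHC class II loading with a near copy in H2-DMb2, had levels of 6.24, 6.88 and 6.00 in WT EoPs, against 9.84, 10.00 and 9.78 in WT GMPs (log2 difference -3.50, standard error 0.44, adjusted p = 2.75e-06), and H2-DMb2 had a difference of -2.91, adjusted p = 5.11e-06. Mefv, the pyrin gene, had levels of 6.00, 6.39 and 5.57 in WT EoPs, against 9.33, 9.59 and 9.13 in WT GMPs (log2 difference -3.37, standard error 0.35, adjusted p = 1.76e-07), and 5.69, 6.62 and 5.79 in CMPs. Clec5a, a lectin receptor of myeloid cells, had levels of 5.24, 6.32 and 5.47 in WT EoPs, against 8.94, 8.83 and 8.90 in WT GMPs (log2 difference -3.21, standard error 0.35, adjusted p = 4.16e-07), and 4.69, 5.78 and 4.75 in CMPs. In these last genes EoPs and CMPs were both low and GMPs were high. Arap2 (-3.59, adjusted p = 5.26e-11), Scin (-3.47, adjusted p = 1.73e-09), which encodes an actin severing protein, Dram1 (-3.31, adjusted p = 1.44e-05), a gene of autophagy, Fgd2 (-3.20, adjusted p = 2.28e-07) and the neuropilin gene Nrp1 (-2.93, adjusted p = 3.23e-05) fell with them. Timm50, a subunit of the mitochondrial import channel, had levels of 7.59, 7.49 and 7.06 in WT EoPs, against 10.48, 10.60 and 10.49 in WT GMPs (log2 difference -3.14, standard error 0.23, adjusted p = 4.09e-10), and 10.23, 9.57 and 10.43 in CMPs, and the tubulin gene Tubb6 had levels of 7.49, 7.71 and 6.98 in WT EoPs, against 10.48, 10.26 and 10.38 in WT GMPs (log2 difference -2.98, standard error 0.19, adjusted p = 3.03e-11). The EoPs alone were low in both. Ass1, the enzyme that makes argininosuccinate, had levels of 8.43, 8.56 and 7.46 in WT EoPs, against 11.34, 11.11 and 11.15 in WT GMPs (log2 difference -3.05, standard error 0.28, adjusted p = 1.5e-08). Of 12 measured markers of dendritic cells and MHC class II none was lower and 1 was higher, beside 5.77% and 5.11% of all genes, with a median of -0.03. This was the class II beta chain H2-Ab1, at 7.53, 7.68 and 7.45 in WT EoPs, against 5.75, 6.12 and 6.33 in WT GMPs (1.48, adjusted p = 0.0169), whereas H2-Aa and the transactivator Ciita were detected on none of the 6 arrays. Leaving out 1 array ended the call of H2-Ab1 (EoP 2 and GMP 1, adjusted p 0.0557 to 0.0801).

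Receptors for myeloid growth factors and cytokines split by direction, with 6 of 16 measured genes lower and 3 higher and a median of -0.30. Csf3r, the receptor of G-CSF, which drives neutrophil production, had levels of 8.48, 8.30 and 8.09 in WT EoPs, against 10.44, 10.36 and 10.67 in WT GMPs (log2 difference -2.20, standard error 0.34, adjusted p = 5.17e-05), and 10.35, 10.31 and 10.02 in CMPs. Il6ra, the alpha chain of the IL-6 receptor, had levels of 6.09, 7.31 and 6.18 in WT EoPs, against 9.85, 9.37 and 9.69 in WT GMPs (log2 difference -3.11, standard error 0.34, adjusted p = 4.19e-07). Its partner Il6st was not detected in EoPs and was at least 1.79-fold lower (adjusted p = 0.00105). Il10ra was at 5.05, 6.01 and 4.78 in WT EoPs, against 7.60, 7.47 and 7.70 in WT GMPs (-2.31, adjusted p = 4.19e-07) and Tnfrsf1a, a receptor of TNF, at 6.57, 6.97 and 6.24 in WT EoPs, against 8.69, 8.67 and 8.85 in WT GMPs (-2.15, adjusted p = 6.18e-05). The EoP arrays were thus below the GMP arrays in the receptors of G-CSF, M-CSF, IL-6, IL-10 and TNF. The higher members were Epor, Tgfbr2, with 10.75, 10.64 and 10.80 in WT EoPs, against 9.57, 9.77 and 9.79 in WT GMPs (log2 difference 1.02, standard error 0.10, adjusted p = 1.1e-07), and Ifngr1 (0.57, adjusted p = 0.016). A second Tgfbr2 probe, detected on 1 EoP array, was not called (0.20, adjusted p = 0.741). Without 1 array, the call was lost for Ifngr1 (EoP 3 and GMP 1 and 3, adjusted p 0.0686 to 0.0838).

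Genes of neutrophil granules did not pass the test. Of 8 measured primary granule genes and 13 secondary granule genes, none was higher or lower in limma, and medians were -0.14 and 0.41. The summed level of the 8 primary granule genes was 15.94 to 16.14 in WT EoPs, against 16.29 to 16.34 in WT GMPs, without overlap. All EoP arrays were below all GMP arrays in 3 of the 8, against 17.1% of all genes, and above them in none, against 13.5%. At an unadjusted p under 0.05, 1 primary granule gene was lower and no other gene of either list passed. With the 6 arrays fitted alone, limma called 2 primary granule genes lower and no secondary granule gene. Elane, neutrophil elastase, had levels of 13.63, 13.30 and 13.02 in WT EoPs, against 13.92, 14.14 and 14.07 in WT GMPs (-0.73, adjusted p = 0.654), so that the groups did not overlap. Prtn3, proteinase 3, had levels of 13.25, 12.85 and 12.44 in WT EoPs, against 13.92, 13.95 and 13.79 in WT GMPs (-1.04, adjusted p = 0.0828), again without overlap. Mpo (0.16, adjusted p = 0.894), Ctsg, the cathepsin G gene (0.11, adjusted p = 0.941), and Ms4a3 (-0.24, adjusted p = 0.937) overlapped. Other detected probes of Mpo and Kit, of opposite sign to those given, were not called either (-0.68, adjusted p = 0.343 for Mpo and 0.17, adjusted p = 0.903 for Kit). A p above the threshold does not show that these levels were equal. Among proteases outside these lists, Ctse, an aspartic protease, had levels of 12.58, 12.50 and 12.38 in WT EoPs, against 9.16, 9.03 and 9.19 in WT GMPs (log2 difference 3.36, standard error 0.30, adjusted p = 1.27e-08), and Ctsh had levels of 12.50, 12.70 and 12.77 in WT EoPs, against 10.32, 10.20 and 10.05 in WT GMPs (log2 difference 2.46, standard error 0.25, adjusted p = 1.02e-07). Ctsz, at 10.28, 10.67 and 10.47 in WT EoPs, against 11.46, 11.35 and 11.61 in WT GMPs (adjusted p = 0.00341), and Ctsa (-0.86, adjusted p = 0.035) were lower. Calls lost when 1 array was left out were those of Ctsa (EoP 1 and 3 and any GMP array, adjusted p 0.0724 to 0.163).

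Of 27 measured replication genes, 13 were lower and none was higher, with a median of -0.59, and the EoP arrays were all below the GMP arrays in 21, against 17.1% of all genes. Gins1, a subunit of the replicative helicase, had levels of 8.77, 9.20 and 8.86 in WT EoPs, against 10.33, 10.73 and 10.22 in WT GMPs (log2 difference -1.49, standard error 0.33, adjusted p = 0.00351). Orc1, of the origin recognition complex, was at 6.80, 6.45 and 6.77 in WT EoPs, against 7.82, 7.47 and 8.01 in WT GMPs (log2 difference -1.09, standard error 0.16, adjusted p = 1.86e-05), and Rfc5, of the clamp loader, at 9.93, 9.89 and 9.82 in WT EoPs, against 10.75, 10.81 and 10.72 in WT GMPs (log2 difference -0.88, standard error 0.13, adjusted p = 1.98e-05), although a second Rfc5 probe was not called (-0.63, adjusted p = 0.11). The clamp itself, Pcna, was not called (0.09, adjusted p = 0.958). All 27 differences lay between -1.49 and 0.09, a narrower span than that of the monocyte markers (-3.73 to 1.52).

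Of 27 measured mitosis genes, 7 were lower and none was higher, with a median of -0.45. Birc5, survivin, had levels of 9.57, 9.59 and 9.31 in WT EoPs, against 11.76, 11.96 and 11.78 in WT GMPs (log2 difference -2.35, standard error 0.29, adjusted p = 2.18e-06), the largest fall of the list. Aurka, Aurkb and Plk1, kinases of mitosis, had differences of -0.97 (adjusted p = 0.00643), -1.01 (adjusted p = 0.0477) and -0.80 (adjusted p = 0.0291). Among cyclins, kinases and inhibitors, 6 of 21 measured genes were lower and none was higher. Ccnd1, cyclin D1, which carries growth signals into the cell cycle, had levels of 4.99, 5.67 and 5.04 in WT EoPs, against 7.27, 7.08 and 7.43 in WT GMPs (log2 difference -2.03, standard error 0.38, adjusted p = 0.000589), and 8.46, 7.02 and 8.82 in CMPs. The cyclin E genes Ccne1 (-1.38, adjusted p = 6.64e-05) and Ccne2 (-1.15, adjusted p = 0.00983) were also lower. Ribosome biogenesis showed 7 lower and no higher genes among 24 measured, with a median of -0.32, among them Ncl, nucleolin (-0.73, adjusted p = 0.00212), whose second probe was not called (-0.50, adjusted p = 0.199). When any 1 of the 6 arrays was left out, the lower genes numbered 8 to 10 for replication, 2 to 4 for mitosis, 3 to 5 for cyclins and 2 to 5 for ribosome biogenesis. The lowest counts came without EoP replicates 1 or 3 or GMP replicate 1 for replication, without EoP replicates 1 or 3 or GMP replicate 2 for mitosis and cyclins, and without EoP replicate 3 for ribosome biogenesis. With arrays scaled to a common median they numbered 22, 16, 9 and 13. Leaving out 1 array ended the call of Aurkb (any array, adjusted p 0.0582 to 0.166) and Plk1 (EoP 1 and 3 and GMP 1 and 2, adjusted p 0.0866 to 0.105).

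**Figure D5:**
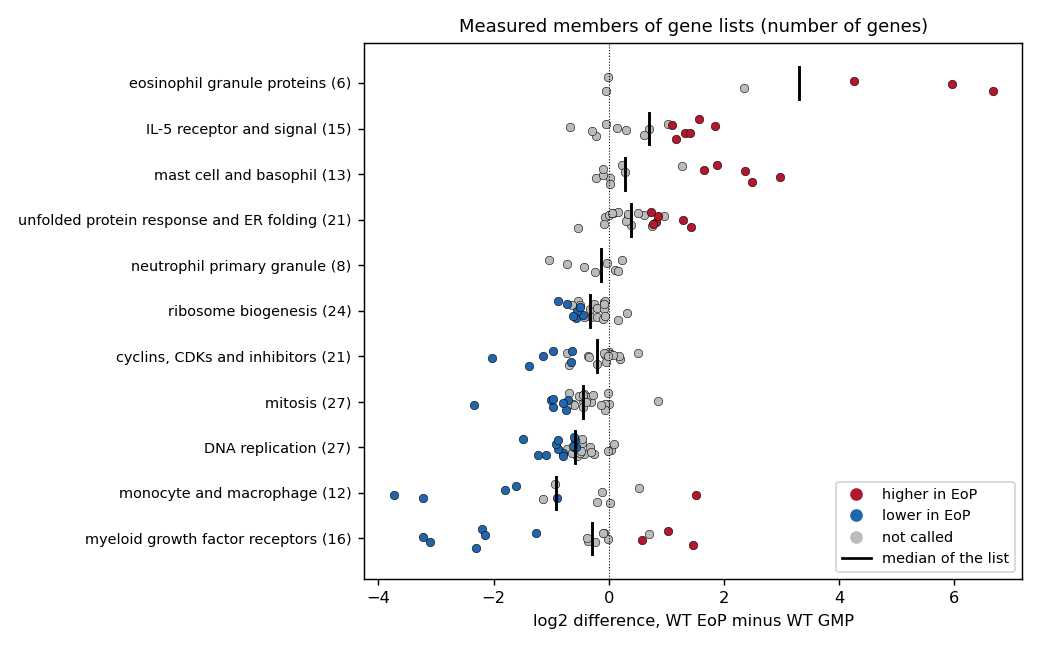
Log2 difference of WT EoPs minus WT GMPs (horizontal axis) for each measured gene of 11 lists (rows, with the number of genes). Red points were called higher in EoPs, blue points lower and grey points not called, and the black bar is the median of the list. The median lies to the right of 0 for granule proteins, the IL-5 receptor and signal, mast cells and basophils and protein folding, and to the left for the other 7 lists.

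Of genes of the unfolded protein response and protein folding, 6 of 21 measured were higher and none was lower, with a median of 0.38. Dnajb9, a chaperone partner in the endoplasmic reticulum, had levels of 9.70, 9.79 and 9.51 in WT EoPs, against 8.56, 7.67 and 8.47 in WT GMPs (log2 difference 1.43, standard error 0.33, adjusted p = 0.00476). Pdia4, a disulfide isomerase, had levels of 12.25, 12.38 and 12.53 in WT EoPs, against 11.56, 11.60 and 11.72 in WT GMPs (log2 difference 0.76, standard error 0.16, adjusted p = 0.00201), and 10.19, 10.86 and 10.49 in CMPs. Creld2 (0.82, adjusted p = 0.00222), Manf (0.85, adjusted p = 0.0352), Selenos (0.73, adjusted p = 0.00252) and Ddit3, which encodes CHOP (1.29, adjusted p = 0.0315), were the other higher members. Xbp1, the factor of this response that eosinophils need, did not separate the groups, at 12.76, 12.58 and 12.59 in WT EoPs, against 12.63, 12.51 and 12.63 in WT GMPs (0.05, adjusted p = 0.921). The number of higher genes was 2 with arrays scaled to a common median and 8 with cyclic loess. Of 15 glycolysis genes Slc2a3, a glucose transporter, was higher (1.08, adjusted p = 2.18e-06), and Hk3, a hexokinase of myeloid cells (-1.40, adjusted p = 0.000588), and Pkm (-0.56, adjusted p = 0.0157) were lower. Beside shares of 5.77% lower and 5.11% higher over all genes, 6 of 35 genes of oxidative phosphorylation were lower and 1 was higher, with differences from -0.75 to 0.41. The lower genes numbered 2 without EoP replicate 3, 3 without GMP replicate 2 and 18 with arrays scaled to a common median. Of 20 genes of amino acid supply, 4 were lower and 1 was higher, and 2 were lower without EoP replicate 1, EoP replicate 3 or GMP replicate 1. Shmt1, an enzyme of serine and folate use, was at 8.42, 8.29 and 8.23 in WT EoPs, against 10.64, 10.56 and 10.63 in WT GMPs (log2 difference -2.30, standard error 0.29, adjusted p = 3.48e-06). Without 1 array, the call was lost for Manf (any EoP array and GMP 1 and 2, adjusted p 0.0641 to 0.121), Ddit3 (any EoP array and GMP 1 and 3, adjusted p 0.0657 to 0.138) and Pkm (EoP 1 and 3 and GMP 3, adjusted p 0.0525 to 0.0724).

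Of 13 measured genes of the BCL2 family 1 was higher and 2 were lower, beside shares of 5.11% and 5.77% over all genes. Bcl2a1b, one of several near-identical copies, was higher (1.55, adjusted p = 0.00481), and Bcl2 and Bid were lower. Bcl2 had levels of 7.50, 7.58 and 7.77 in WT EoPs, against 9.10, 8.80 and 8.82 in WT GMPs (log2 difference -1.29, standard error 0.31, adjusted p = 0.00749), and of its 4 other detected probes 2 were also lower (-1.25, adjusted p = 0.0202, and -0.89, adjusted p = 0.0195) and 2 were not called (-1.02, adjusted p = 0.0532, and -0.62, adjusted p = 0.243). The probe with the highest mean over the 6 arrays alone is the one at -1.02, with which Bcl2 was not called. Bid, which promotes cell death, had levels of 10.46, 10.83 and 10.82 in WT EoPs, against 11.64, 12.06 and 11.81 in WT GMPs (log2 difference -1.13, standard error 0.15, adjusted p = 4.97e-06). Among innate receptors Tlr1 (-1.26, adjusted p = 0.000239) and Tlr4 (-1.04, adjusted p = 0.000238) were lower, 2 of 14 measured, and none was higher. Fcgr2b, the inhibitory IgG receptor and the CD32 of both gates, was higher (1.08, adjusted p = 0.00579), with a second probe that was not called (0.93, adjusted p = 0.0638), and Fcgr4 was lower, at 7.35, 7.39 and 6.99 in WT EoPs, against 8.35, 8.62 and 8.07 in WT GMPs (adjusted p = 0.0351). Of 14 cytokines and chemokines, Ccl24, the eotaxin-2 gene, was lower, with no detected EoP array (at least 2.14-fold, adjusted p = 0.000614). Interferon response genes were called in neither direction by limma among 13 measured, with a median of 0.17, and 1 was higher at an unadjusted p under 0.05. Without GMP replicate 2, 1 of them was lower, and with the 6 arrays fitted alone 2 were higher. Calls lost when 1 array was left out were those of Fcgr4 (any EoP array and GMP 1 and 2, adjusted p 0.0554 to 0.149).

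The step between GMPs and EoPs was then set against the same step in IL5T mice, to ask whether constant IL-5 changed it. The difference of the steps, WT minus IL5T, was called for 788 of 24159 probes (3.26%). IL5T EoPs and 2 of the 5 IL5T GMP arrays were in the run of the WT arrays, whereas the other 3 had been run apart on version 1.1. The largest difference was that of Epx (5.81, standard error 1.13, adjusted p = 0.00356). Its levels in IL5T EoPs were 14.32, 14.33 and 14.39, against 12.35 and 12.54 in IL5T GMPs of the same run and 11.47, 11.46 and 11.48 in IL5T GMPs of version 1.1. WT and IL5T EoPs thus lay within 14.32 to 14.43 for Epx, whereas all WT GMP arrays were below all IL5T GMP arrays. These EoP levels were close to the top of the scale, as the highest level on the 6 WT arrays was 14.70. Whether that limited the EoP levels or the difference of the steps was not tested. Ear3 (5.13, standard error 1.23, adjusted p = 0.0196) and Prg3 (5.04, standard error 1.07, adjusted p = 0.00784) followed. With the 16 arrays of version 2.0 alone, the difference of steps was 4.75, adjusted p = 0.0364, for Epx and 3.98, adjusted p = 0.0434, for Prg3, while that of Ear3 was not called (4.51, adjusted p = 0.168).

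In other genes it was the EoPs that differed. Dgkk was at 6.33, 6.19 and 6.62 in IL5T EoPs, far below WT EoPs, and its steps differed by 3.43, standard error 0.19, adjusted p = 2.56e-11. Slamf9, an immune receptor gene, was at 6.09, 6.20 and 5.87 in WT EoPs, against 5.76, 6.51 and 5.82 in WT GMPs, and at 9.34, 9.72 and 10.20 in IL5T EoPs, against 5.52 and 6.02 in IL5T GMPs of the same run (-3.74, standard error 0.55, adjusted p = 0.000234). Mfsd2a, a lipid transporter, was detected on 1 WT EoP array and no WT GMP array, and was at 9.42, 9.12 and 9.64 in IL5T EoPs, against 5.52 and 5.24 in IL5T GMPs of that run (-3.72, standard error 0.30, adjusted p = 2.72e-08). Socs2, the STAT5 feedback inhibitor, rose more in IL5T mice, with a difference of steps of -2.47, standard error 0.34, adjusted p = 0.000126. Of the cyclin and replication genes, Ccne1 had a step of -1.38 in WT mice, against 0.34 in IL5T mice (-1.72, standard error 0.31, adjusted p = 0.00184). The step of Orc1 was -1.09 in WT mice and 0.09 in IL5T mice (-1.19, standard error 0.22, adjusted p = 0.00265). Gins2 fell more in WT mice than in IL5T mice, with -1.23 and -0.30 (-0.93, standard error 0.25, adjusted p = 0.037). For Gata1 (0.26, standard error 0.44, adjusted p = 0.872), Irf8 (0.82, standard error 0.88, adjusted p = 0.759) and Csf1r (0.93, standard error 0.55, adjusted p = 0.476) the difference of the steps was not called.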

How the data were processed

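Illumina MouseWG-6 beadchips of version 1.1 (16 arrays) and 2.0 (16 arrays, all WT arrays among them) had been hybridized with labelled cRNA of sorted bone marrow cells. The authors deposited scanner intensity for every probe, not yet normalized, and a detection p-value, and separately deposited log2 values after normexp correction and quantile normalization of probes on both versions. The scanner software is not given in the sources used here. For this report, intensities of the 24159 shared probes were corrected by normexp (offset 16), with the negative controls worked out from detection p-values, and quantile normalized over 32 arrays in limma 3.58.1 (R 4.3.3). A model with 9 group means and beadchip version (22 residual degrees of freedom) was fitted, as in the study's methods, with Benjamini-Hochberg adjustment over all probes. No probe was filtered. Only limma's moderated test was used, and standard errors are its moderated ones. The tests were checked on simulated data.

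Probes took their symbols from the platform annotation: 21296 named 1 gene, 8 several and 2855 none, and the last 2 kinds were not named here. A gene is represented by its brightest probe over 32 arrays. Where no array of a group detected a gene, the fold is "at least" the brighter mean over the mean, per array, of the higher of the lowest detected signal and the gene's own. Named genes were the 20 largest rises and falls without overlap of the groups, up to 6 called members of each list and direction, all members of the main lists, and up to 10 genes that differed most between WT and IL5T, and the text gives a selection. Members and lists were chosen with earlier results of these data known. Summed marker levels are log2 of the sum of linear levels. Promoters were searched on both strands with Python 3.11.15. Alternatives were the deposited values, 2 other background settings, 2 normalizations, a detection filter, other samples or batch terms, array weights, stricter thresholds, a replicate block and each array left out. Mature eosinophils of the series entered only the fit.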

Additional observations from a re-analysis of the deposited data

Results flagged for a closer look

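The step between GMPs and EoPs differed between WT and IL5T mice in 788 probes by the limma test of the difference itself, and these named genes were among them. A positive difference of steps means that EoP minus GMP was greater in WT mice. The granule protein genes Epx (5.81), Ear3 (5.13) and Prg3 (5.04) had the largest, and WT GMPs were lower than IL5T GMPs in each. Dgkk (3.43), Ldhc (2.70, adjusted p = 0.00893), Cdh1 (1.68), Il17rb (1.63) and Lypd6 (1.29) rose more in WT mice. Ldhc was at 12.85, 13.21 and 12.90 in IL5T EoPs, against 7.39 and 7.66 in IL5T GMPs of version 2.0. Ctse (1.84), Apoe (2.31), Hoxa7 (1.75), Kit (1.06), Stx3 (0.96) and Tgfbr2 (0.80) also had positive differences of steps. Irf5 (0.94) and Lmo2 (0.77) fell less in WT mice. The negative differences were those of Slamf9 (-3.74), Mfsd2a (-3.72), Socs2 (-2.47), Timm50 (-1.74), Tubb6 (-1.72), Ccne1 (-1.72), Orc1 (-1.19), Creld2 (-1.04) and Gins2 (-0.93). Of the 5 IL5T GMP arrays 3 had been run apart on version 1.1, and the part of the run was not tested beyond the fit with version 2.0 alone. That fit kept the call of 22 of these 25 genes, while it was lost for Ear3 (4.51, adjusted p = 0.168), Irf5 (0.98, adjusted p = 0.136) and Stx3 (0.95, adjusted p = 0.128).

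Version 2.0 of the beadchip also held 21122 probes outside those shared with version 1.1. Normalized with the 16 arrays of that version, 758 of them were higher and 839 were lower in WT EoPs than in WT GMPs, and they were not assigned to genes here.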

How the results depend on the processing

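Of 1054 higher and 1173 lower probes, 921 and 3024 were called with arrays scaled to a common median, 679 and 655 at an adjusted p under 0.01, 125 and 78 by TREAT against a fold of 2, and 1697 and 2105 of 45281 probes when all of version 2.0 were used. For the 788 probes that differed between the WT and IL5T steps, these settings gave 1504 (common median), 291 (adjusted p under 0.01) and 8 (TREAT), and cyclic loess gave 1234. Leaving out 1 array at a time gave 777 to 981 higher probes, 786 to 1025 lower probes and 521 to 685 probes that differed between steps, the lowest of these without WT GMP replicate 2 and 525 without WT EoP replicate 1. The other settings stayed within 1.5 times of each count. No called gene named here changed direction under any setting. Single calls did depend on the setting in both ways. Among genes not called in the main fit, Cebpb and Prtn3 were called in 9 of 20 alternatives, Prg2 in 8 and Mcpt8 in 6. Among called genes, Csf2rb2 and Manf lost their calls in 11 of 20. With each gene represented by its brightest probe over the 6 arrays, 1 gene of the BCL2 family was lower in place of 2, as Bcl2 was then not called, and all other list counts stayed within 1.5 times.

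The deviations of same-numbered EoP and GMP arrays from their group means correlated weakly, at 0.06, 0.08 and 0.05. Those of arrays with different numbers were lower, between -0.09 and 0.04. Whether the replicate number pairs the arrays was not tested. With the number as a block in a fit of the 6 arrays, 1256 probes were higher and 1439 were lower, against 1383 and 1710 without the block, and 1 primary and 2 secondary neutrophil granule genes were lower with it. With 3 arrays a group, precision is limited by their number, and 12366 of the 24159 probes were detected on none of the 6 arrays.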

Other observations

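Some lists outside the main account held a few called genes, beside shares of 5.11% higher and 5.77% lower over all genes. Of 12 measured genes of cholesterol synthesis, Mvd (0.69, adjusted p = 0.0174) and Cyp51 (1.47, adjusted p = 5.37e-05) were higher in EoPs than in GMPs and none was lower, with a median of 0.25. Of 15 chemokine receptors and adhesion genes, Pecam1, an adhesion protein of leukocytes and endothelium, was higher (1.02, adjusted p = 0.00241), although its other detected probe was not called (0.41), and Ccr2, Itgb7, Itgal (-1.38, adjusted p = 9.07e-06), a chain of the integrin LFA-1, and Cxcr2 (-1.35, adjusted p = 0.0318), a neutrophil chemokine receptor, were lower. Igll1, a part of the surrogate light chain of B cell precursors, had levels of 5.45, 5.48 and 5.17 in WT EoPs, against 6.56, 7.34 and 6.89 in WT GMPs (log2 difference -1.56, standard error 0.38, adjusted p = 0.00772) and was the only called gene of 7 measured B cell genes, 5 of which were detected on none of the 6 arrays. Of 5 genes of the NADPH oxidase, Ncf4 was lower (-0.52, adjusted p = 0.018). Without 1 array, the call was lost for Mvd (EoP 2 and GMP 1, adjusted p 0.0576 to 0.119), Ccr2 (EoP 1, adjusted p = 0.0552), Itgb7 (EoP 3, adjusted p = 0.0581), Cxcr2 (EoP 1 and 2 and GMP 1 and 3, adjusted p 0.0728 to 0.175), Igll1 (GMP 2, adjusted p = 0.052) and Ncf4 (EoP 1 and GMP 1 and 2, adjusted p 0.0575 to 0.104).

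For the 1659 called genes, the GMP array nearest to the EoP arrays was replicate 2 in 655, replicate 1 in 547 and replicate 3 in 457. The EoP array nearest to the GMP arrays was replicate 2 in 780, replicate 1 in 535 and replicate 3 in 344.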
